A study of Mus musculus with 20 samples.

Results

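Laminins, nidogens, perlecan and agrin are the main non-collagen components of the basement membrane, the thin protein sheet on which the endothelial cells of retinal vessels rest and in which pericytes are embedded. The 10 genes described here, *Lama1*, *Lama4*, *Lama5*, *Lamb1*, *Lamb2*, *Lamc1*, *Nid1*, *Nid2*, *Hspg2* and *Agrn*, were chosen by their symbols, and all 10 were found in the deposited tables, of 15704 genes tested in the oxygen-induced retinopathy (OIR) experiment and 15408 in the injection experiment. Laminins are heterotrimers of an alpha, a beta and a gamma chain, and they self-assemble into a sheet that is bound by integrins and dystroglycan at the cell surface. Nidogens bridge the laminin sheet to the collagen IV network, and the heparan sulfate proteoglycans perlecan (*Hspg2*) and agrin (*Agrn*) are anchored to it. In the retina this material is found around vessels and at the inner limiting membrane, where Müller glia and astrocytes contact the vitreous.

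The series holds 20 bulk RNA-Seq libraries of mouse retina, in 4 groups of 5. *Atf6*+/+ OIR and *Atf6*-/- OIR mice were kept in 75% oxygen from postnatal day (P) 7 to P12, which closes the central retinal capillaries, and their retinas were taken at P17, when new vessel growth peaks in room air. *Atf6*-/- mice carry a premature stop codon in *Atf6*, which encodes a sensor of unfolded protein in the endoplasmic reticulum, in every cell of the animal. Saline-treated and Ceapin-A7-treated mice were wild type, had no oxygen exposure and were studied at P30. They received 1 µL in both eyes by intravitreal injection, of 10 µM Ceapin-A7, a small molecule that blocks ATF6 activation, or of the saline vehicle (labelled PBS), and retinas were taken 24 h later. The label gives the same range of solvent content for both solutions, whereas the methods state less dimethyl sulfoxide in the Ceapin-A7 solution than in the control saline. If the methods hold, drug and solvent content cannot be told apart. All mice were on the C57BL/6J background, and both sexes were used.

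The values are FPKM (fragments per kilobase of transcript, scaled to the number of mapped fragments), which adjust for gene length and so allow levels of different genes to be set side by side. Read depth is not given with FPKM. The steps between low values, which 2 decimals make coarse, put the third Ceapin-A7-treated library at about 0.667 of the depth of the rest, and smaller differences could not be resolved. *Atf6* RNA itself was 14.6 to 16.1 FPKM in *Atf6*+/+ OIR and 13.6 to 16.8 FPKM in *Atf6*-/- OIR libraries. A stop codon need not lower RNA, so this level does not check the genotype labels. The libraries held transcripts of vessel cells, with endothelial markers summing to 141 to 267 FPKM and mural cell markers to 30.9 to 157 FPKM over all 20. They held varying amounts of lens transcript. Summed over 18 lens fibre markers it was 10.7 to 1012 FPKM in *Atf6*+/+ OIR, 6.61 to 10.7 FPKM in *Atf6*-/- OIR, 14.5 to 6286 FPKM in saline-treated and 159 to 10998 FPKM in Ceapin-A7-treated libraries.

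*Agrn*, which clusters receptors at the nerve-muscle synapse and is also made by neurons and glia, had the highest mean in each group, at 44.6 ± 5.75 FPKM (SD, n = 5) in *Atf6*+/+ OIR and 27.1 ± 0.642 FPKM (SD, n = 5) in Ceapin-A7-treated retinas, and its values did not overlap those of the next gene in any group. In *Atf6*+/+ OIR it was followed by *Lamc1* (13.9 ± 3.2), *Lamb1* (13.7 ± 2.68), *Nid1* (12.7 ± 3.05), *Lama4* (9.61 ± 2.49), *Lamb2* (8.31 ± 1.60), *Nid2* (6.24 ± 1.17), *Lama5* (4.74 ± 0.981) and *Hspg2* (4.40 ± 1.5 FPKM, SD, n = 5), each overlapping its neighbour. *Lama1*, the alpha chain of early embryonic and inner limiting membrane laminin, was lowest at 1.52 ± 0.285 FPKM (SD, n = 5), with no overlap with *Hspg2*. At P30 the order of the means was different, but neighbours below *Agrn* overlapped in both groups, except *Lama1* and *Lama4* in Ceapin-A7-treated retinas. *Lamb2* had the second highest mean, *Lama4* the lowest, at 0.900 ± 0.176 FPKM in saline-treated and 0.884 ± 0.112 FPKM in Ceapin-A7-treated retinas (SD, n = 5 each), and *Nid2* lay at 1.13 ± 0.837 FPKM in saline-treated retinas. The plot of the 10 genes by library shows these levels.

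**Figure D1:**
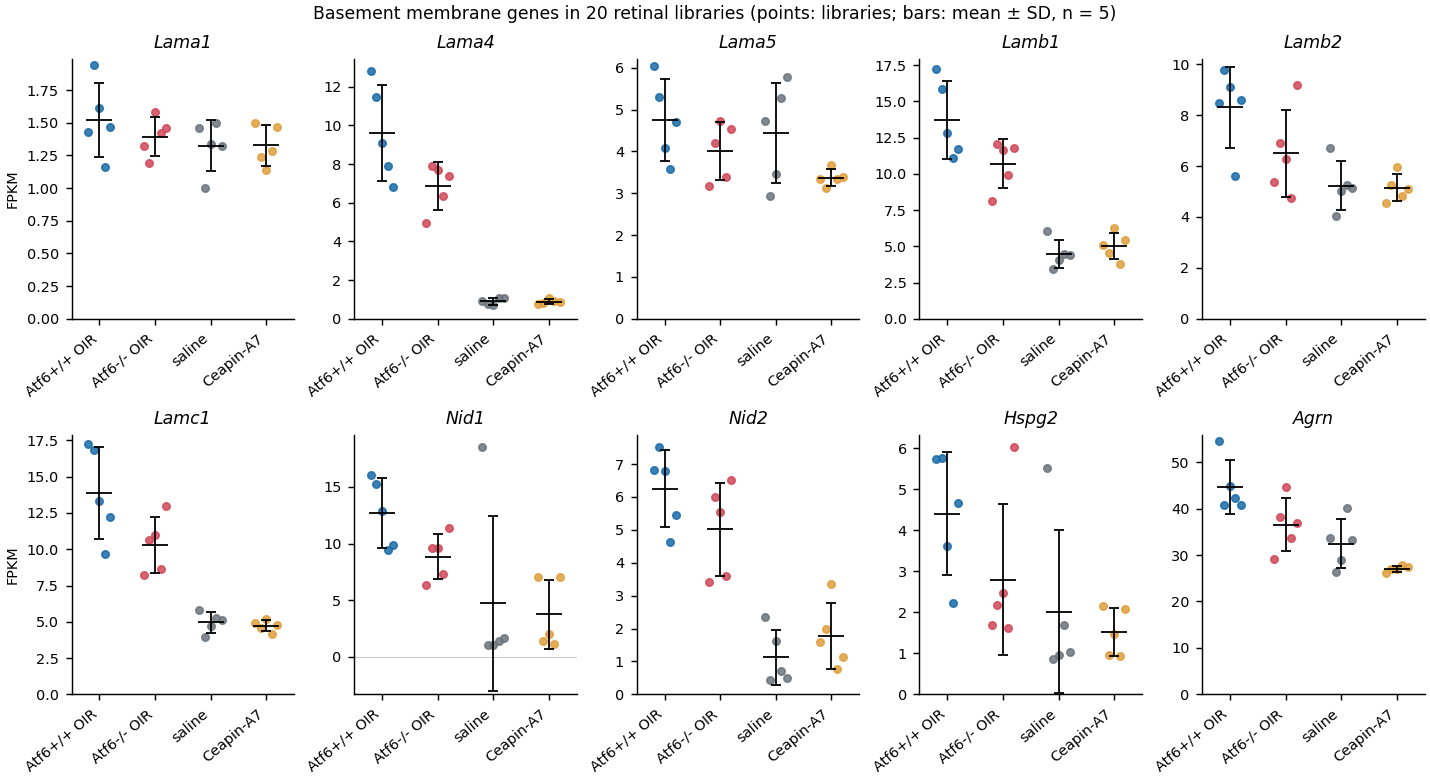
FPKM of the 10 genes (1 panel each, y axis from 0 or below) in the 5 libraries of each group (points), with the group mean ± SD (black bars, n = 5). *Lama4* lay at 4.94 to 12.8 FPKM in the OIR libraries and at 0.70 to 1.08 FPKM in the P30 libraries, while *Nid1* and *Hspg2* each had a saline-treated library far above the others.

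The upstream sequence of the genes was read for letters of the ATF6 response element, which joins CCAAT and CCACG over 9 bases. RefSeq promoters (GRCm38.p6, 250 bases before each annotated start) were held for 6 of the 10 genes, with 7 starts, as *Agrn* has 2. *Lama1*, *Lama4*, *Lamc1* and *Nid2* were not among them. In none of the 7 was the full element found on either strand, as in 0.113% of 32851 promoters, nor ATTGG, 1 base and CCACG (0.0304% of all), nor TGACGTGG (0.563%). The letters CCAAT were in *Lamb1* and *Nid1* (33.8% of all promoters), and CCACG in *Lamb1*, *Hspg2* and the distal start of *Agrn* (28.3%). GGGCGG, the GC box, was in 6 of 7 (32.7%), all but that of *Lamb2*, TATAAA in none (12.4%), ACGTG in none (16.6%) and GCGTG in 3 (28.2%). Matches on both strands were counted, GCGTG overlaps CCACG on its opposite strand where the bases are shared, and a match is only a match of letters. No binding was measured here. The 3 sequences below are shown because they hold 1 of the 2 parts of the element at least, in genes from each class of the list (a laminin chain, a nidogen and a proteoglycan), with CCAAT and CCACG in capitals on either strand. They are *Lamb1* at chr12:31265043-31265292 on the plus strand, *Nid1* at chr13:13437352-13437601 on the plus strand and *Agrn* at chr4:156197489-156197738 on the minus strand, and all are written 5′ to 3′ toward the gene.
Lamb1: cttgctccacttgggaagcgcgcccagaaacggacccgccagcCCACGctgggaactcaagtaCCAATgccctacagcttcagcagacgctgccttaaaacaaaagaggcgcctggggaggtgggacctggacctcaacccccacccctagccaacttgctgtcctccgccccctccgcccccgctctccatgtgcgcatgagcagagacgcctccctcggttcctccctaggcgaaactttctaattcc
Nid1: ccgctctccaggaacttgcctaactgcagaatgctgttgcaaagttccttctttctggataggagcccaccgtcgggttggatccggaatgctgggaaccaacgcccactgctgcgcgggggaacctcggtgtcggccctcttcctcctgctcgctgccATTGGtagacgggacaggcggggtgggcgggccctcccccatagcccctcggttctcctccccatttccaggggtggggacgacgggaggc
Agrn: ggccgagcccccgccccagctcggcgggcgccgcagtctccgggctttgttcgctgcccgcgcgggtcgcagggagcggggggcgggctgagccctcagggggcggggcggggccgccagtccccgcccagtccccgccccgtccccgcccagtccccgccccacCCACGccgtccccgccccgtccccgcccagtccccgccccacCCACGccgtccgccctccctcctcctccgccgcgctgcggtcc
In *Lamb1* CCACG began 207 and CCAAT 187 bases before the start, the reverse of their order in the element. In *Nid1* CCAAT lay on the minus strand, 91 bases before the start. In *Agrn* CCACG occurred 85 and 43 bases before the start, in a window of 83.6% GC.

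To compare retinas with and without Atf6 under OIR, *Atf6*-/- was set against *Atf6*+/+ at P17. All 10 genes had a lower mean log2 level in *Atf6*-/- OIR retinas, by 0.09 (*Lama1*) to 0.72 (*Hspg2*), with a median difference of -0.34 against 0.0028 over all 15704 genes. None of the 10 passed the test adjusted over all genes (limma, Benjamini-Hochberg, adjusted p under 0.05), a rule that 0.00637% of all genes passed as lower. At the unadjusted p of 0.05 or less that the study used, 5 of 10 were lower (*Nid1*, *Lama4*, *Agrn*, *Lamb1* and *Lamc1*) and 0 of 10 were higher, where 5.81% of all genes were lower and 6.94% higher. For 0 of 10 genes did the groups separate without overlap, as 1.12% of all genes did with *Atf6*-/- lower.

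*Nid1* encodes nidogen-1, the linker between laminin gamma-1 and collagen IV, and its promoter above holds CCAAT without CCACG. Its 5 *Atf6*+/+ OIR libraries read 16.1, 15.3, 12.9, 9.40 and 9.85 FPKM, and its *Atf6*-/- OIR libraries 6.34, 9.59, 9.61, 7.30 and 11.4 FPKM. The 3 highest libraries were *Atf6*+/+ and the 2 lowest *Atf6*-/-, with overlap between 9.40 and 11.4 FPKM. The log2 difference was -0.50 (SE 0.193, 95% CI -0.92 to -0.08, adjusted p = 0.364). Its paralogue *Nid2* had the smaller difference, -0.32 (SE 0.200, adjusted p = 0.471), from 4.64 to 7.53 FPKM in *Atf6*+/+ OIR and 3.42 to 6.51 FPKM in *Atf6*-/- OIR libraries.

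*Lama4* encodes the alpha chain of laminin-411, a laminin of endothelial basement membranes. It read 12.8, 11.4, 9.08, 7.90 and 6.80 FPKM in *Atf6*+/+ OIR and 4.94, 7.91, 7.70, 6.36 and 7.37 FPKM in *Atf6*-/- OIR libraries. No *Atf6*-/- library reached the 3 highest of the *Atf6*+/+ group, and the other two of that group lay within the *Atf6*-/- range. The log2 difference was -0.45 (SE 0.179, 95% CI -0.84 to -0.06, adjusted p = 0.366). *Lama5*, the alpha chain of laminin-511, which is found in mature vessels and many epithelia, differed by -0.22 (SE 0.163, adjusted p = 0.531), and *Lama1* by -0.09 (SE 0.141, 95% CI -0.40 to 0.22, adjusted p = 0.764).

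*Lamb1*, whose promoter holds CCAAT and CCACG apart, and *Lamc1* encode the beta and gamma chains that most embryonic and vascular laminins share. *Lamb1* read 17.2, 15.9, 12.8, 11.1 and 11.7 FPKM in *Atf6*+/+ OIR and 8.10, 12.1, 11.7, 9.93 and 11.8 FPKM in *Atf6*-/- OIR libraries. *Lamc1* read 17.2, 16.9, 13.3, 9.67 and 12.2 FPKM in *Atf6*+/+ OIR and 8.23, 10.7, 10.99, 8.65 and 13.0 FPKM in *Atf6*-/- OIR libraries. For both genes the first and second *Atf6*+/+ libraries were the highest of the 10 and the first *Atf6*-/- library was the lowest. The log2 difference was -0.33 for *Lamb1* (SE 0.147, adjusted p = 0.381) and -0.40 for *Lamc1* (SE 0.177, adjusted p = 0.383). *Lamb2*, the beta chain of synaptic and inner limiting membrane laminins, differed by -0.34 (SE 0.194, adjusted p = 0.439).

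Of the proteoglycans, *Hspg2* had the lowest log2 difference of the 10, -0.72, with the widest error (SE 0.361, 95% CI -1.5 to 0.07, adjusted p = 0.417). It read 5.74, 5.75, 3.62, 2.23 and 4.66 FPKM in *Atf6*+/+ OIR and 1.69, 2.17, 2.48, 1.62 and 6.03 FPKM in *Atf6*-/- OIR libraries. The fifth *Atf6*-/- library was the highest of all 10, and without it the difference was -1.05 (adjusted p = 0.102). *Agrn* read 54.5, 40.8, 44.8, 42.3 and 40.8 FPKM in *Atf6*+/+ OIR and 29.2, 38.1, 44.7, 33.7 and 37.0 FPKM in *Atf6*-/- OIR libraries, with 4 of 5 *Atf6*-/- libraries below the lowest *Atf6*+/+ library. Its log2 difference was -0.28 (SE 0.114, 95% CI -0.52 to -0.03, adjusted p = 0.370).

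Single libraries decided the unadjusted count. It went from 5 of 10 to 0 without the first *Atf6*+/+, the first *Atf6*-/- or the fourth *Atf6*-/- library, to 1 without the second *Atf6*+/+ and to 3 without the third *Atf6*+/+ library, and to 8 without the fourth *Atf6*+/+ or the fifth *Atf6*-/- library, with all 10 differences below 0 each time. The share of all genes lower in each of these fits is not given, so the counts show only that the calls depend on single libraries. With array weights, which give outlying libraries less weight, 4 of 10 genes passed at an adjusted p under 0.05 (*Lamb2*, *Lamc1*, *Nid1* and *Hspg2*), among 2769 genes in all, lower or higher. Log2 differences over all genes were lower at higher transcript GC content (Spearman's rho -0.467 across genes, which are not independent), and the 10 transcripts lay between the 42.0 and 96.1 percentile of GC content. With a correction for GC content 3 of 10 genes (*Lama4*, *Lamc1* and *Nid1*) were lower at the unadjusted threshold and the median difference was -0.26.

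**Figure D2:**
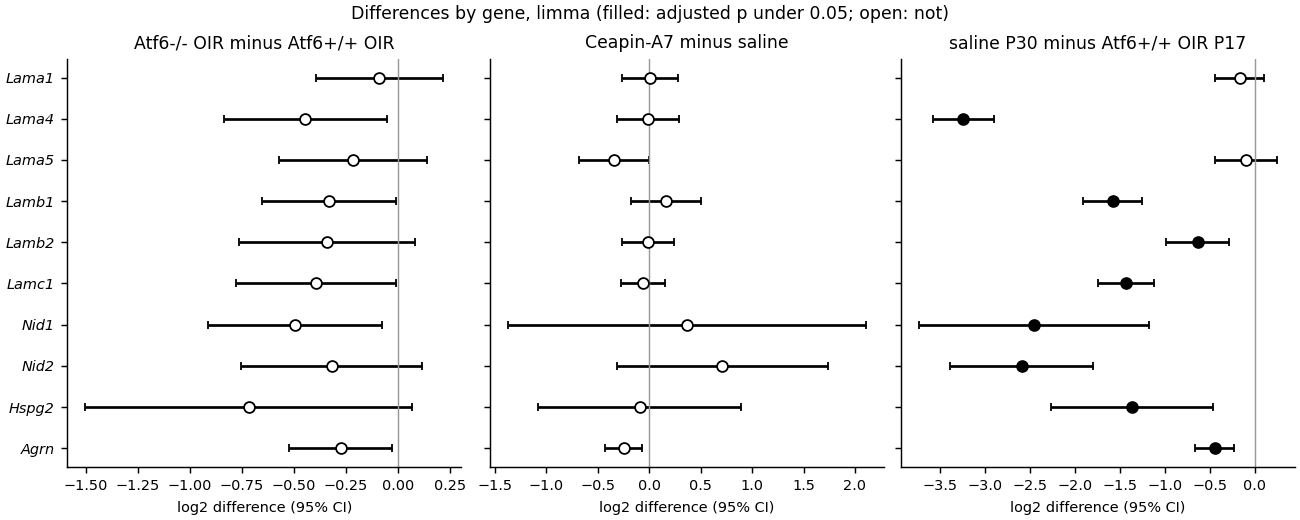
Log2 difference (x axis, point) with 95% confidence interval (bar) for each of the 10 genes (y axis) in 3 comparisons, 5 libraries per group, from limma. Filled points passed an adjusted p under 0.05. In the left panel all points lie below 0 and none is filled, in the middle panel they lie on both sides of 0, and in the right panel 8 are filled and lie between -3.24 and -0.45.

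The rest of the basement membrane was read from lists of genes in the same libraries. Among 8 basement membrane collagens 4 were lower and 4 higher in *Atf6*-/- OIR retinas (median -0.04), and *Col4a1*, *Col4a2* and *Col15a1* were lower at the unadjusted threshold. *Col4a1*, a chain of the main vascular collagen IV, averaged 62.3 ± 16.2 FPKM in *Atf6*+/+ OIR and 39.8 ± 21.7 FPKM in *Atf6*-/- OIR retinas (SD, n = 5 each), a log2 difference of -0.72 (adjusted p = 0.376). *Col4a2*, its partner chain, differed by -0.75 (adjusted p = 0.387) and *Col15a1* by -0.73 (adjusted p = 0.358). Of 17 other basement membrane glycoproteins 12 were lower and 5 higher (median -0.11), and of 4 further laminin chains tested 4 were lower (median -0.16), with none at the unadjusted threshold in either list.

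Among 10 receptors of laminin, perlecan and agrin 9 were lower (median -0.22). *Itgb4*, the beta chain of the alpha-6 beta-4 integrin, differed by -0.74 (adjusted p = 0.358) at 0.29 to 0.55 FPKM on average, and *Itga1*, a collagen and laminin receptor chain, by -0.49 (adjusted p = 0.360). Both were lower at the unadjusted threshold. Of 10 matrix proteases and inhibitors 9 were lower (median -0.35), and *Adamts1* (-0.49, adjusted p = 0.363) and *Mmp14* (-0.49, adjusted p = 0.364) were lower at that threshold. No gene of these 5 lists passed the adjusted test.

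Markers of vessel cells and of several other cell types had different means in these libraries, with none past the adjusted threshold. Endothelial markers were lower for 12 of 13 genes (median -0.30), with summed levels of 187 to 267 FPKM in *Atf6*+/+ OIR and 173 to 225 FPKM in *Atf6*-/- OIR libraries. *Emcn* (-0.34, adjusted p = 0.362), *Erg* (-0.45, adjusted p = 0.362) and *Egfl7* (-0.31, adjusted p = 0.366) had the smallest p of the list. Mural markers were lower for 10 of 10 genes (median -0.53), with sums of 106 to 157 FPKM against 85.9 to 111 FPKM, led by *Myh11* (-0.66, adjusted p = 0.302), *Rgs5* (-0.31, adjusted p = 0.362) and *Acta2* (-0.80, adjusted p = 0.362). Astrocyte markers were lower for 4 of 5 genes (median -0.11) and Müller glia markers for 3 of 8 (median 0.07), with *Apoe* higher at the unadjusted threshold. In bulk tissue, fewer cells of a type and less RNA per cell cannot be told apart. Fibroblast, choroid and sclera markers were lower for 4 of 6 genes (median -0.58), with *Bgn*, *Col3a1* and *Col1a1* at the unadjusted threshold, and summed to 32.3 to 49.9 FPKM in *Atf6*+/+ OIR and 23.5 to 42.4 FPKM in *Atf6*-/- OIR libraries. Red cell genes were lower for 5 of 5 (median -0.51), and rod markers higher for 8 of 8 (median 0.10), with *Pde6b* and *Cnga1* at the unadjusted threshold. Lens fibre markers were lower for 15 of 17 genes (median -2.56), of which 14 were at that threshold. Pigment epithelium markers were higher for 10 of 11 (median 0.66), of which 5 were at it. Their part in the results above was not tested.

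Next, to see whether 24 h of ATF6 inhibition altered these genes, Ceapin-A7-treated retinas were compared with saline-treated retinas at P30. The 10 genes lay on both sides of 0, with 6 lower and 4 higher and a median log2 difference of -0.01, against 0.00089 over 15408 genes. None of the 10 passed the adjusted test, as for 0% of all genes lower and none higher (limma). *Agrn* and *Lama5* were lower at the unadjusted threshold and 0 of 10 were higher, where 5.31% of all genes were lower and 5.04% higher. The number lower at that threshold was 2 without the second or the third saline-treated library and 1 without any other single library. The share of all genes lower in these smaller fits is not given.

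*Agrn* read 33.7, 26.4, 28.9, 40.02 and 33.3 FPKM in saline-treated and 26.1, 26.9, 27.1, 27.8 and 27.5 FPKM in Ceapin-A7-treated libraries. The Ceapin-A7-treated values lay close together and 4 of 5 saline-treated libraries were above all of them. The log2 difference was -0.25 (SE 0.083, 95% CI -0.43 to -0.06, adjusted p = 0.472). *Lama5* read 4.73, 2.94, 3.46, 5.27 and 5.77 FPKM in saline-treated and 3.33, 3.13, 3.68, 3.33 and 3.39 FPKM in Ceapin-A7-treated libraries, again with 3 saline-treated libraries above and 2 within or below the range of the treated group. Its log2 difference was -0.34 (SE 0.155, 95% CI -0.68 to -0.0043, adjusted p = 0.480).

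The laminin chains *Lama1*, *Lama4*, *Lamb2* and *Lamc1* differed by -0.06 to 0.01 on the log2 scale. Their 95% intervals were -0.26 to 0.28 for *Lama1*, -0.31 to 0.29 for *Lama4*, -0.27 to 0.24 for *Lamb2* and -0.28 to 0.15 for *Lamc1*. *Lamb1* differed by 0.17 (95% CI -0.17 to 0.50, adjusted p = 0.691).

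The values of the nidogens and perlecan turned on a few libraries. *Nid1* read 18.5, 1.06, 0.99, 1.35 and 1.61 FPKM in saline-treated and 7.05, 1.42, 2.04, 1.16 and 7.02 FPKM in Ceapin-A7-treated libraries. The first saline-treated and the first and the fifth Ceapin-A7-treated libraries stood apart, and they also had the 3 highest lens fibre sums of the 10 (6286, 10998 and 5008 FPKM, against 14.5 to 2929 FPKM in the rest). *Hspg2* read 5.52, 0.86, 0.97, 1.70 and 1.04 FPKM in saline-treated and 2.16, 0.97, 1.48, 0.94 and 2.07 FPKM in Ceapin-A7-treated libraries, and its 3 highest values were in the same 3 libraries. *Nid2* read 2.36, 0.44, 1.63, 0.71 and 0.51 FPKM in saline-treated and 1.60, 1.99, 3.36, 0.78 and 1.13 FPKM in Ceapin-A7-treated libraries, and was highest in the third Ceapin-A7-treated library, where mural markers summed to 86.5 FPKM against 36.0 to 40.8 FPKM in the rest of its group. In the same library fibroblast, choroid and sclera markers summed to 52.5 FPKM (11.6 to 17.5 FPKM in the rest) and pigment epithelium markers to 454 FPKM (126 to 258 FPKM in the rest), and their part in the *Nid2* value was not tested. The log2 difference was 0.37 for *Nid1* (SE 0.793, 95% CI -1.37 to 2.11), 0.71 for *Nid2* (SE 0.467, 95% CI -0.31 to 1.73) and -0.09 for *Hspg2* (SE 0.449, 95% CI -1.07 to 0.89).

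Without those 3 libraries, the differences were 0.27 for *Nid1*, 1.17 for *Nid2* and 0.0029 for *Hspg2*, and 0 of 10 genes were lower at the unadjusted threshold. That fit had fewer libraries and the share of all genes lower in it is not given, so nothing is drawn from its count. Without the first saline-treated library alone, the differences were 1.13 for *Nid1*, 1.03 for *Nid2* and 0.36 for *Hspg2*. The 2 saline-treated libraries with lens sums of 2929 and 2831 FPKM had *Nid1* at 1.06 and 1.35 FPKM, and the *Atf6*-/- OIR library with the highest *Hspg2* had the lowest lens sum of its group, 6.61 FPKM. *Lama4* was 0.92, 0.77 and 0.87 FPKM in the 3 libraries and 0.70 to 1.08 FPKM in the other 7. The first saline-treated library also had the highest sums of its group for fibroblast, choroid and sclera (22.4 FPKM) and pigment epithelium markers (305 FPKM). The part of lens or other tissue in these values was not tested.

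**Figure D3:**
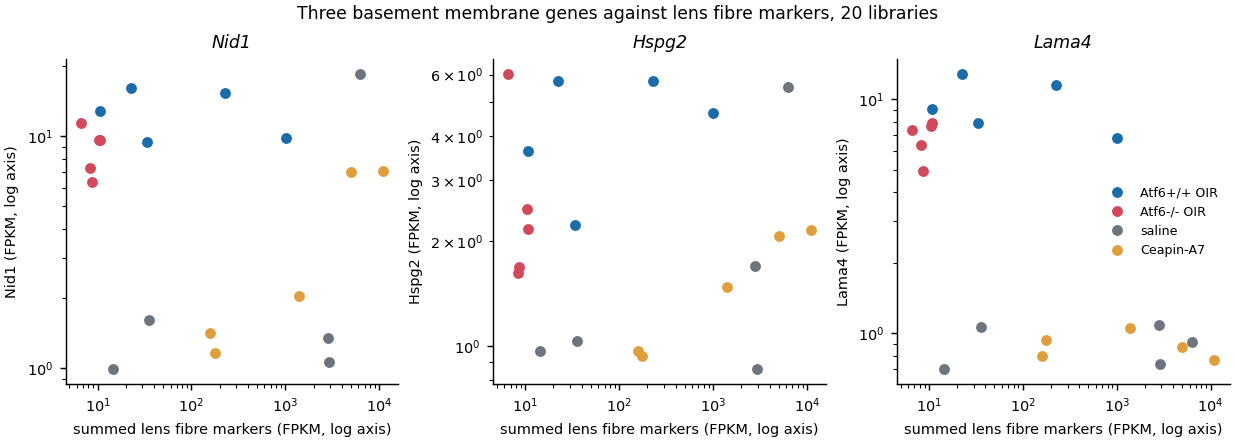
*Nid1*, *Hspg2* and *Lama4* (y axis, FPKM, log scale) against the summed FPKM of 18 lens fibre markers (x axis, log scale), 1 point per library, coloured by group. Among the P30 libraries the 3 with the highest lens sums had *Nid1* at 7.02 to 18.5 FPKM and the other 7 at 0.99 to 2.04 FPKM, while *Lama4* was at most 1.08 FPKM in all 10.

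Of the other lists after Ceapin-A7, basement membrane collagens were higher for 6 of 8 genes (median 0.22) with none at the unadjusted threshold. Receptors were lower for 6 of 10 genes (median -0.01), with *Itga3* (-0.27, adjusted p = 0.472) at that threshold. Matrix proteases and inhibitors were lower for 9 of 10 genes (median -0.26), with *Bmp1* (-0.60, adjusted p = 0.472), *Mmp2* (-0.42, adjusted p = 0.472) and *Adamts1* (-0.70, adjusted p = 0.479) at that threshold. Endothelial markers were lower for 7 of 13 genes (median -0.06) and mural markers higher for 8 of 10 (median 0.17). Fibroblast, choroid and sclera markers were higher for 7 of 7 genes (median 0.51), with *Dcn* and *Lum* at the unadjusted threshold. Pigment epithelium markers were higher for 7 of 12 (median 0.47), with 4 higher and 2 lower at that threshold, of which *Dct*, *Mlana* and *Pmel* had the smallest p. Müller glia markers were higher for 6 of 8 (median 0.22), with *Glul* and *Dkk3* at that threshold, and astrocyte markers were lower for 3 of 5 (median -0.23), with *Gfap* (-0.79, adjusted p = 0.472) at it. Rod markers were higher for 8 of 8 (median 0.17). Lens fibre markers were higher for 18 of 18 genes (median 1.09). Their part in these results was not tested.

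Whether the genotype difference and the drug difference were unlike was tested as an interaction over all 20 libraries. None of the 10 genes passed at an adjusted p under 0.05, as for 0.0064% of 15628 genes lower. At the unadjusted threshold only *Lamb1* was lower, where 3.79% of all genes were lower. The genotype difference of *Lamb1* minus its drug difference was -0.50 (SE 0.222, 95% CI -0.96 to -0.03, adjusted p = 0.521). The intervals of the others were wide for *Nid1* (-2.67 to 0.95) and *Hspg2* (-1.90 to 0.65) and narrower for *Agrn* (-0.33 to 0.28). The 2 designs differ in age, oxygen and duration of ATF6 loss, so the test compares whole experiments.

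The 2 control groups were then compared. Saline-treated P30 retinas were compared with P17 *Atf6*+/+ OIR retinas in the fit of all 20 libraries. Age, oxygen exposure, injection and the separate experiments cannot be told apart here. All 10 genes had lower means at P30 and 8 of 10 were lower at an adjusted p under 0.05 (median log2 difference -1.40), where 29.6% of all genes were lower and 29.4% higher. For 5 of 10 genes (*Lama4*, *Lamb1*, *Lamc1*, *Nid2* and *Agrn*) the groups did not overlap, against 20.5% of all genes with the saline-treated group lower.

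The chains of the endothelial laminin differed unequally. *Lama4* read 0.92, 0.74, 0.70, 1.08 and 1.06 FPKM in saline-treated libraries, against 6.80 to 12.8 FPKM in *Atf6*+/+ OIR, a log2 difference of -3.24 (SE 0.162, adjusted p = 5.35e-12), or 0.106 of the OIR level. *Lamb1* fell by 1.58 (SE 0.157, adjusted p = 4.85e-08), from 11.1 to 17.2 FPKM in OIR to 3.45 to 6.06 FPKM, and *Lamc1* by 1.43 (SE 0.149, adjusted p = 9.12e-08), from 9.67 to 17.2 FPKM to 3.94 to 5.83 FPKM. *Lamb2* fell by 0.63 (SE 0.167, adjusted p = 0.0028). *Lama5* (-0.10, 95% CI -0.44 to 0.24, adjusted p = 0.624) and *Lama1* (-0.17, 95% CI -0.44 to 0.10, adjusted p = 0.280) did not pass.

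Of the linkers, *Nid2* fell by 2.59 (SE 0.380, adjusted p = 7.5e-06) and *Nid1* by 2.45 (SE 0.614, adjusted p = 0.0019). *Nid1* overlapped between the groups through the first saline-treated library alone, and without it the difference was -3.22 (adjusted p = 2.27e-06). *Hspg2* fell by 1.36 (SE 0.434, adjusted p = 0.0106), or by 1.81 without the first saline-treated library (adjusted p = 0.000267). *Agrn* had the smallest called difference, -0.45 (SE 0.103, adjusted p = 0.000948).

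The ratios of related genes were then read within each library. *Lama4* stood at 1.44 to 2.23 times *Lama5* in *Atf6*+/+ OIR and at 1.56 to 1.89 times in *Atf6*-/- OIR, but at 0.184 to 0.252 of it in saline-treated and 0.231 to 0.285 of it in Ceapin-A7-treated retinas. *Lamb1* to *Lamb2* was 1.36 to 2.03 and 1.28 to 2.09 in the OIR groups, and 0.805 to 0.904 and 0.781 to 1.13 at P30. The 2 OIR groups overlapped for both ratios, and neither P30 group overlapped the OIR groups. *Nid1* to *Nid2* was 1.80 to 2.36 in *Atf6*+/+ OIR and 1.60 to 2.02 in *Atf6*-/- OIR, and ran from 0.607 to 7.86 in saline-treated and from 0.607 to 6.21 in Ceapin-A7-treated retinas. *Hspg2* to *Agrn* overlapped between all groups, at 0.031 to 0.164. The ratios were fixed for description and were not tested. How many other gene pairs separate likewise was not counted. Of single genes, 20.5% did not overlap with saline-treated below *Atf6*+/+ OIR retinas and 19.9% with saline-treated above.

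**Figure D4:**
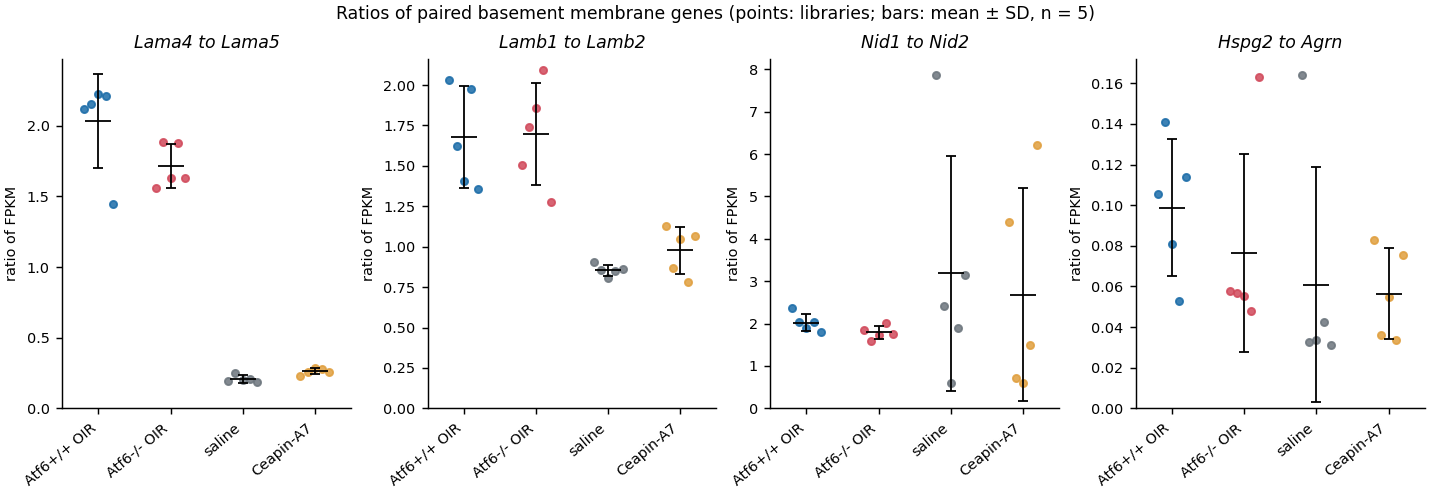
Ratio of the FPKM of related genes (y axis) in each library (points) of the 4 groups, with mean ± SD (black bars, n = 5). The alpha and beta chain ratios of the OIR libraries, at 1.28 or more, lie above those of all P30 libraries, at most 1.13, while *Nid1* to *Nid2* is spread from 0.607 to 7.86 at P30.

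Members of the other basement membrane lists also fell from P17 *Atf6*+/+ OIR to saline-treated P30 retinas. Here and below, fell and rose are used only for genes at an adjusted p under 0.05 (limma). By that rule 29.6% of all genes fell and 29.4% rose. Of 8 collagens 4 fell (*Col4a1* by 1.93, *Col4a2* by 1.82, *Col15a1* by 1.47 and *Col18a1* by 1.30) and none rose, with a list median of -0.94. Among the further laminin chains, *Lama2*, the alpha chain of muscle and glial laminin, fell by 0.86 (adjusted p = 0.00387). Of 10 receptors 5 fell, with *Itga1* lowest (-2.59, adjusted p = 4.42e-11), then *Itgb4* (-1.10), *Itgb1* (-0.95), *Bcam* (-0.79) and *Itga6* (-0.56). Of 17 other glycoproteins 8 fell and 3 rose, with *Sparc* at -1.32, *Vwa1* at -1.73 and *Frem1*, a protein of epithelial basement membranes, at 0.75. Of 10 matrix proteases and inhibitors 4 fell and none rose, *Mmp14*, *Mmp2*, *Bmp1* and *Htra1*.

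By the same rule, endothelial markers fell for 8 of 13 genes (median -1.06) and mural markers for 9 of 10 (median -1.36). Astrocyte markers fell for 4 of 5 (median -1.07) and red cell genes for 5 of 5 (median -2.48). Summed levels were 149 to 188 FPKM against 187 to 267 FPKM for endothelial and 30.9 to 43.2 FPKM against 106 to 157 FPKM for mural markers. *Podxl* and *Kdr* weighed most in the endothelial sum, at means of 57.3 and 38.1 FPKM in saline-treated retinas. They differed by 0.13 and -0.02 and did not pass, so that sum differed less than most genes of its list. *Pecam1*, an endothelial adhesion protein, fell by 1.68 (adjusted p = 3.56e-10), and *Rgs5*, a pericyte gene, fell by 2.2 (adjusted p = 6.65e-13). Lens fibre markers were higher for 18 of 18 genes, of which 3 rose. Pigment epithelium markers rose for 5 of 12 genes (median 0.97), and fibroblast, choroid and sclera markers fell for 3 of 7 (median -1.28). Müller glia markers fell for 3 of 8 genes and rose for 1 (median -0.27), and rod markers fell for 2 of 8 (median -0.09). The part of these cells in the 10 differences was not tested.

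Across the 20 libraries, with each group's mean removed, the 5 genes whose levels varied most like *Lamc1* were *Fgfr1* (Pearson's r 0.950), *Kank2* (0.916), *Actn1* (0.914), *Nrp2* (0.913) and *Tln1* (0.911), of 12996 genes compared. Spearman's rho was 0.848 to 0.955 for these 5, and r without the 2 libraries farthest from the median of *Lamc1* was 0.851 to 0.920. Among the 10 genes, *Lamb1* ranked 21 (r 0.869), *Lamb2* 38 (0.853), *Lama5* 106 (0.807), *Hspg2* 187 (0.780) and *Lama4* 411 (0.739). Further down, *Lama1* ranked 1554 (0.606), *Nid2* 1646 (0.597) and *Agrn* 1677 (0.592). *Nid1* ranked 2425 over all libraries (0.494) but had r 0.962 within the OIR libraries and 0.688 within the P30 libraries. *Nid2* likewise had r 0.897 within the OIR and 0.700 within the P30 libraries. For *Lama4* r was 0.830 within the OIR and 0.442 within the P30 libraries. The values share libraries, depth and base composition, and no p is given.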

How the data were processed

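Libraries were grouped by their labels. Stranded mRNA was sequenced as paired ends. The authors mapped reads to GRCm39 using HISAT2 v2.0.4 and ran RSEM v1.2.18, and they deposited FPKM for each gene, rounded to 2 decimals. Their own tests used DESeq2 v1.4.5. The deposited values are not counts, so read depth is unknown and no interval from counts is given. After median-of-ratios scaling, log2(FPKM + 0.1) of genes whose mean FPKM exceeded 0.1 was tested using limma 3.58.1 (eBayes, trend) under R 4.3.3. This scale understates changes of low genes. Each experiment was fitted on its own 10 libraries, and comparisons across experiments on all 20, although the experiments' tables were deposited separately. P-values were adjusted by the Benjamini-Hochberg method across every tested gene. Fits were tested on simulated data. Labels do not say whether libraries of a group came from separate animals, so p-values measure the spread between these libraries. The members and lists were chosen with earlier results of these data known. The text names all 10 members and, from each further list, genes called at the adjusted threshold and up to 3 with the smallest unadjusted p of 0.05 or less, while the longest sets of called genes are given by counts. A further gene of these lists is not reported here. Alternatives were other pseudocounts, filters, scalings and weights, a fit without trend, a replicate block, a GC correction (lowess span 0.3, GRCm38 transcripts) and leaving out libraries.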

Additional observations from a re-analysis of the deposited data

Results flagged for a closer look

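In groups of 5 libraries, 3 of 40 combinations of gene and group had a library farther from its nearest neighbour than Dixon's 95% limit allows, where chance gives about 1 in 20. *Nid1* was 18.5 FPKM in the first saline-treated library, against 0.99 to 1.61 FPKM in the other 4. *Hspg2* was 5.52 FPKM in the same library, against 0.86 to 1.70 FPKM in the other 4. *Hspg2* was 6.03 FPKM in the fifth *Atf6*-/- OIR library, against 1.62 to 2.48 FPKM in the other 4. The first saline-treated library had the highest lens fibre sum of its group (6286 FPKM) and the fifth *Atf6*-/- OIR library the lowest of its group (6.61 FPKM). The pigment epithelium sum was likewise highest in the former (305 FPKM). In the latter it was 92.37 FPKM, next to 92.39 FPKM in the first *Atf6*-/- OIR library, where *Hspg2* was 1.69 FPKM. Both flagged libraries had the highest sums of their group for fibroblast, choroid and sclera markers (22.4 and 42.4 FPKM) and for mural markers (43.2 and 111 FPKM). *Col4a1* was also highest of its group in both libraries, at 72.9 and 77.0 FPKM. The part of any other tissue in these values was not tested. No gene of the 10 passed the test of whether the genotype difference and the drug difference were unlike (the interaction).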

How the results depend on the processing

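All 10 differences stayed below 0 between *Atf6*-/- and *Atf6*+/+ OIR under the 22 alternatives run, and the 8 of 10 genes lower in saline-treated than *Atf6*+/+ OIR retinas were 8 under each of the 16 run there. In the first comparison, genes lower at an adjusted p under 0.05 numbered 4 with array weights, and genes lower at the unadjusted threshold 3 without trend, 3 with the GC correction, and 0 to 8 on leaving out 1 library. In the second, Ceapin-A7 against saline, the latter number was 1 without a filter, 1 with FPKM as deposited and 1 without trend, and 1 to 2 on leaving out 1 library, with 0 to 1 higher. Leaving out the 3 libraries with the most lens transcript, chosen after seeing the data, gave 0 lower and a median of 0.032, and on leaving out 1 library the median ran from -0.084 to 0.064. The signs of 4 genes near 0 also turned. *Lama1* was -0.029 with TPM, -0.00059 with array weights and -0.063 without the 3 libraries, *Lama4* 0.016 with array weights and 0.061 without the 3 libraries, *Lamb2* 0.015 with the GC correction and 0.14 without the 3 libraries, and *Hspg2* 0.0029 without the 3 libraries. Without 1 library they ran from -0.076 to 0.057 (*Lama1*), -0.084 to 0.047 (*Lama4*), -0.092 to 0.083 (*Lamb2*) and -0.28 to 0.36 (*Hspg2*). In the third, *Lama1* was 0.070 with quantile normalization and *Lama5* ran from -0.20 to 0.027 without 1 library. The share of all genes called under each alternative is not given, so these counts show only how far the calls moved. The causes were not tested.

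No pairing by replicate number was seen, but 5 libraries per group cannot exclude it. Same-numbered libraries correlated at -0.26 to 0.310 within the experiments, and as low as -0.325 between the control groups. The value of 0.310 was for the first saline-treated and the first Ceapin-A7-treated library, and the latter was the best match of the former in its group. With the replicate block, the numbers lower at the unadjusted threshold were 5, 2 and 8 in the 3 comparisons, and the block changed no call. FPKM hold no counts, so the precision that depth allows is unknown, and 2 decimals limit genes near 0.1 FPKM.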
